A study of Caenorhabditis elegans with 6 samples.

Results

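The carboxylesterase family of the nematode Caenorhabditis elegans was followed in whole animals of 2 genotypes. Members were the rows of the expression table whose RefSeq symbol begins with cest, ges, ace or nlg and ends in a number. The rule found 38 of the 20894 rows in the table: 32 cest genes, ges-1, the acetylcholinesterase genes ace-1 to ace-4 and nlg-1. The symbols cest-15 and cest-29, which RefSeq lists as pseudogenes, have the same form but no row in the table. Both genotypes were labelled as adults and grew on Escherichia coli OP50, the usual laboratory food bacterium. The genotypes were bcf-1(ylf1) mutants and wild-type N2. The labels do not state what the ylf1 allele changes in bcf-1, the gene of an intestinal protein that binds bacteria according to the series title. There were 3 libraries per genotype, generated, collected and processed independently according to the series design.

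Carboxylesterases belong to the alpha/beta hydrolase fold, and the active members cut or transfer ester bonds with a catalytic serine. In the worm, GES-1 is the gut esterase, a classical marker of the intestine whose gene is switched on by GATA factors such as ELT-2. Several CEST enzymes are known to join building blocks to ascarosides, the worm's pheromones, and to glucosides, a process tied to lysosome-related organelles of the intestine. Acetylcholinesterases break down the transmitter acetylcholine, and neuroligin, the product of nlg-1, is a synaptic adhesion protein with the esterase fold but no esterase activity.

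The table names no unit, and its values were taken as FPKM, mapped fragments per unit of gene length and library size. Ranks and sums across genes rest on that reading. They summed to 659249 to 668784 in the mutant libraries and 671119 to 687573 in the N2 libraries, and the read depth behind them is unknown. The targeted gene bcf-1 had 63.7, 72.1 and 60.01 FPKM in the mutant and 374, 412 and 499 FPKM in N2, without overlap. Its neighbour gfi-1 averaged 73.7 ± 5.71 FPKM in the mutant and 440 ± 71.7 FPKM in N2. Since the labels do not state what ylf1 changes, the level of bcf-1 alone cannot check the genotype labels. The first principal component, with 80.4% of the variance, separated the genotypes. On the second, with 8.79%, N2 replicate 1 lay furthest out at 28.9, with N2 replicates 2 and 3 at -14.9 and -13.4. Mutant replicates 1, 2 and 3 lay at 2.92, -16.9 and 13.5, so the mutant libraries were spread too. The adult label was checked by marker genes. The adult cuticle collagen gene col-19 averaged 17.3 ± 6.46 FPKM in the mutant and 774 ± 220 FPKM in N2 (SD, n = 3 each). Summed over vit-2, vit-5 and vit-6, yolk transcripts, which adult hermaphrodites make, lay at 10.3 to 34.3 FPKM in the mutant libraries and 1985 to 3049 FPKM in the N2 libraries. These markers of the adult are thus far lower in the mutant libraries, which goes against their label. The part of this difference in the results below was not tested.

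Most cest genes and ges-1 were lower in the mutant, whereas no acetylcholinesterase or neuroligin gene fell. A gene was tested when it reached 1 FPKM in at least 3 libraries, which 32 of the 38 members did. In limma, a linear model fitted over all 13576 tested genes with Benjamini-Hochberg adjustment, 22 of the 32 were called at an adjusted p under 0.05, where 49.6% of all tested genes were. Of these, 18 fell and 4 rose, 56.25% and 12.5% of the tested members. Over all tested genes 15% fell and 34.6% rose. On log2(FPKM + 1) values, the median change (mutant minus N2) was -0.59 over the members and 0.24 over all tested genes. Relative to that shift the members' median was -0.82, and 28 of 32 lay below the median of all genes.

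The balance of rises and falls among all genes depends on how libraries are scaled, while falls outnumbered rises in the family under each scaling tried. After median-ratio scaling 23.5% of all tested genes fell and 22.3% rose, and after quantile normalisation 20.6% fell and 24% rose. Of the 32 members, 22 fell and 2 rose under the first and 23 fell and 2 rose under the second. The groups did not overlap in 28 of 32 members, against 58.4% of all tested genes. In 23 members the mutant was the lower group and in 5 the higher, against 18% and 40.4% of all tested genes. Members were also split by level, a split chosen after the values were seen. Of the 24 members with a mean of at least 5 FPKM in N2, 17 fell and 1 rose, where 18.3% and 24.5% of the tested genes at that level did so. Of the 8 tested members under 5 FPKM, 1 fell and 3 rose, where 8.08% and 56% of such genes did so. The level in N2 also enters the change. cest-28 and ace-3 passed the filter through 1 genotype alone and so had to differ, and without them 17 of 30 fell and 3 rose.

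**Figure D1:**
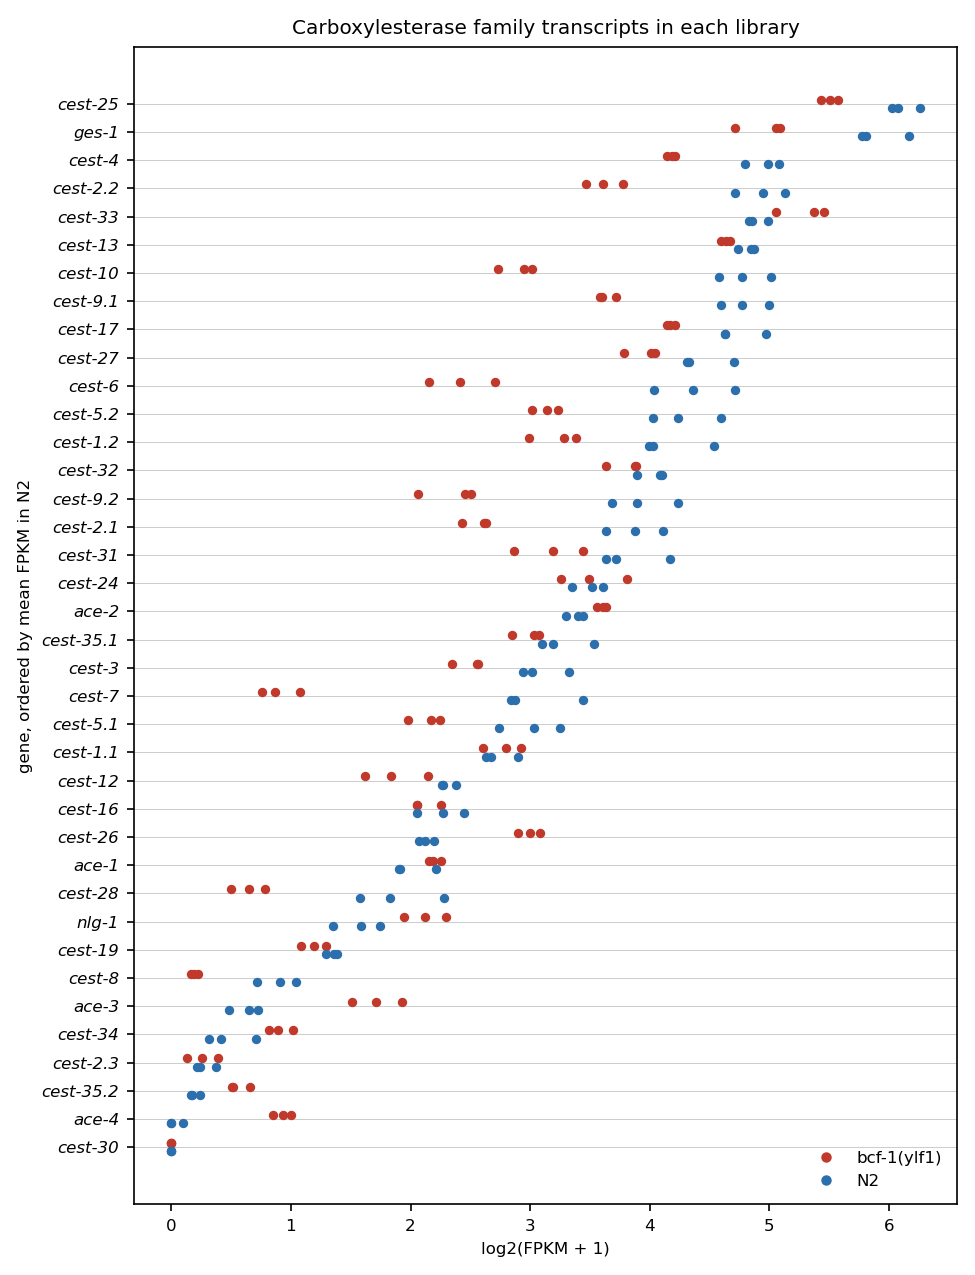
Level of each of the 38 members in each library as log2(FPKM + 1), with bcf-1(ylf1) libraries in red above N2 libraries in blue and genes ordered by mean level in N2. In most genes of the upper part the 3 red points lie left of the 3 blue points, while cest-33, cest-26, cest-34, cest-35.2, nlg-1, ace-2, ace-3 and ace-4 show the opposite and cest-30 is at 0 in all libraries.

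Summed over the 38 members, the family held 342, 310.2 and 355 FPKM in the mutant libraries. The sum was 511, 616 and 486 FPKM in the N2 libraries, a 1.601-fold difference of means with no overlap. These sums were 0.0470% to 0.0531% of the library total in the mutant and 0.0707% to 0.0896% in N2. In whole animals, fewer cells of a type and less RNA per cell cannot be told apart.

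ges-1 (R12A1.4; chromosome V, 1427653 to 1432137, minus strand, WBcel235) had 32.2, 25.2 and 33.1 FPKM in the mutant. It had 53.9, 70.7 and 55.2 FPKM in N2, so that each mutant library lay below each N2 library. Mean levels were 30.2 ± 4.30 FPKM in the mutant and 59.9 ± 9.38 FPKM in N2 (SD, n = 3 each), 1.99-fold lower. The log2 change was -0.97 (SE 0.16, limma adjusted p = 0.00114). It was the second most abundant member in N2, after cest-25, and the third in the mutant, after cest-25 and cest-33.

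The largest fall on the log2(FPKM + 1) scale was of cest-7 (C23H4.4), a cest gene of the chromosome X cluster described below. It had 0.828, 0.689 and 1.11 FPKM in the mutant and 6.34, 9.89 and 6.16 FPKM in N2. The mean was 8.54-fold lower, with a log2 change of -2.15 (SE 0.19, limma adjusted p = 4.36e-05). The mutant libraries sat close to the filter limit of 1 FPKM, whereas all N2 libraries stood well above it.

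cest-6 and cest-10, both on chromosome IV, followed. cest-6 (T22D1.11) had 4.33, 3.46 and 5.54 FPKM in the mutant and 19.6, 25.2 and 15.4 FPKM in N2, 4.51-fold lower in the mean. Its highest mutant library was below its lowest N2 library by a wide margin. cest-10 (C42D4.2), given with ges-1 as a marker of the family, had 6.74, 5.65 and 7.09 FPKM in the mutant and 26.4, 31.3 and 22.8 FPKM in N2, 4.13-fold lower. The log2 changes were -1.94 for cest-6 and -1.89 for cest-10 (SE 0.21 and 0.16, limma adjusted p = 0.000126 and 3.54e-05). Both kept an adjusted p under 0.05 in the same direction under all 12 alternatives tried.

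cest-10 was also set against ges-1. Their ratio within a library, cest-10 to ges-1, was 0.209, 0.224 and 0.214 in the mutant and 0.490, 0.442 and 0.414 in N2. With 3 libraries against 3, the exact two-sided permutation p of the log2 ratio was 0.1, the smallest the design allows, and 0.133 adjusted over the 8 pairs of members compared in this way. The pairs were chosen after the values were seen.

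**Figure D2:**
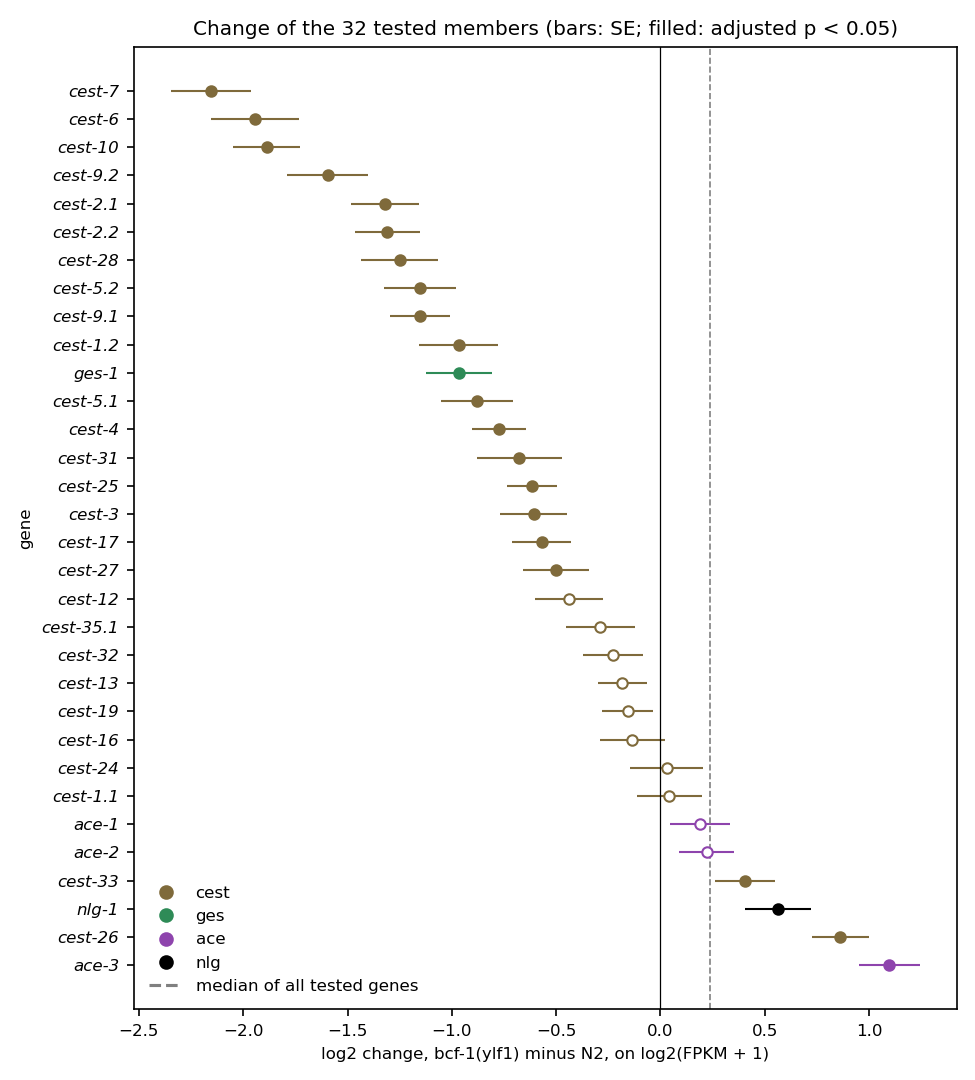
Log2 change (bcf-1(ylf1) minus N2) with its standard error for the 32 tested members, coloured by the first part of the symbol, with filled points for an adjusted p under 0.05 and a dashed line at 0.24, the median of all tested genes. The 18 filled points left of 0 are cest genes and ges-1, and the 4 filled points on the right are cest-33, nlg-1, cest-26 and ace-3.

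Many cest genes lie side by side in the genome, and neighbours were compared. On chromosome IV, 5 cest genes are spread between 6624528 and 7182993, and all 5 fell, where 15% of all tested genes did. Of the adjacent pair cest-5.2 and cest-5.1, which lie 359 bases apart on the minus strand, cest-5.2 (C01B10.10) had 7.83, 7.10 and 8.41 FPKM in the mutant and 17.8, 23.1 and 15.3 FPKM in N2. This was a 2.41-fold lower mean (log2 change -1.15, SE 0.17, limma adjusted p = 0.000657). cest-5.1 averaged 3.39 ± 0.413 FPKM in the mutant and 7.13 ± 1.42 FPKM in N2 (log2 change -0.88, limma adjusted p = 0.00291). The ratio of cest-5.1 to cest-5.2 was 0.413 to 0.447 in the mutant and 0.369 to 0.401 in N2 (exact permutation p = 0.1, adjusted 0.133). Similar genes named as a pair may divide reads in a way the sources used here do not describe, so the value of each copy alone is uncertain. cest-4, which is known to be needed for modular glucosides, stood at 16.7, 17.6 and 17.2 FPKM in the mutant and 30.8, 32.8 and 26.8 FPKM in N2. Its mean was 1.76-fold lower (log2 change -0.77, SE 0.13, limma adjusted p = 0.00125), and the mutant libraries were close together.

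On chromosome X, cest-8, cest-9.2, cest-9.1, cest-7 and cest-3 lie in 1 direction within 24.998 kb (12219660 to 12244657, plus strand). cest-3, cest-8 and cest-9.2 are known to be needed for ascarosides with a group added to the sugar. All 4 tested genes of this cluster fell, by unequal amounts, where 15% of all tested genes fell. cest-9.2 (C23H4.7) had 4.50, 3.17 and 4.69 FPKM in the mutant and 13.9, 17.8 and 11.8 FPKM in N2, 3.52-fold lower (log2 change -1.6, SE 0.19, limma adjusted p = 0.000218). For cest-9.1 (C23H4.3) the values were 11.1, 10.99 and 12.2 FPKM in the mutant and 26.3, 30.9 and 23.2 FPKM in N2, 2.34-fold lower (log2 change -1.15, SE 0.15, limma adjusted p = 0.000269). In both genes the genotypes were far apart.

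The ratio of cest-9.2 to cest-9.1 was 0.288 to 0.404 in the mutant libraries and 0.510 to 0.577 in the N2 libraries (exact permutation p = 0.1, adjusted 0.133). cest-3, at the end of the cluster, averaged 4.62 ± 0.469 FPKM in the mutant and 7.60 ± 1.24 FPKM in N2 (SD, n = 3 each; log2 change -0.61, limma adjusted p = 0.0122). cest-8 did not pass the filter and lay at 0.121 to 0.168 FPKM in the mutant and 0.638 to 1.06 FPKM in N2. Without a filter its log2 change was -0.70 (limma adjusted p = 0.00162). In the Ensembl annotation, exons of cest-8 and cest-9.2 share 495 bases and those of cest-9.1 and cest-7 share 69, all on the same strand, so reads there could belong to either gene.

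**Figure D3:**
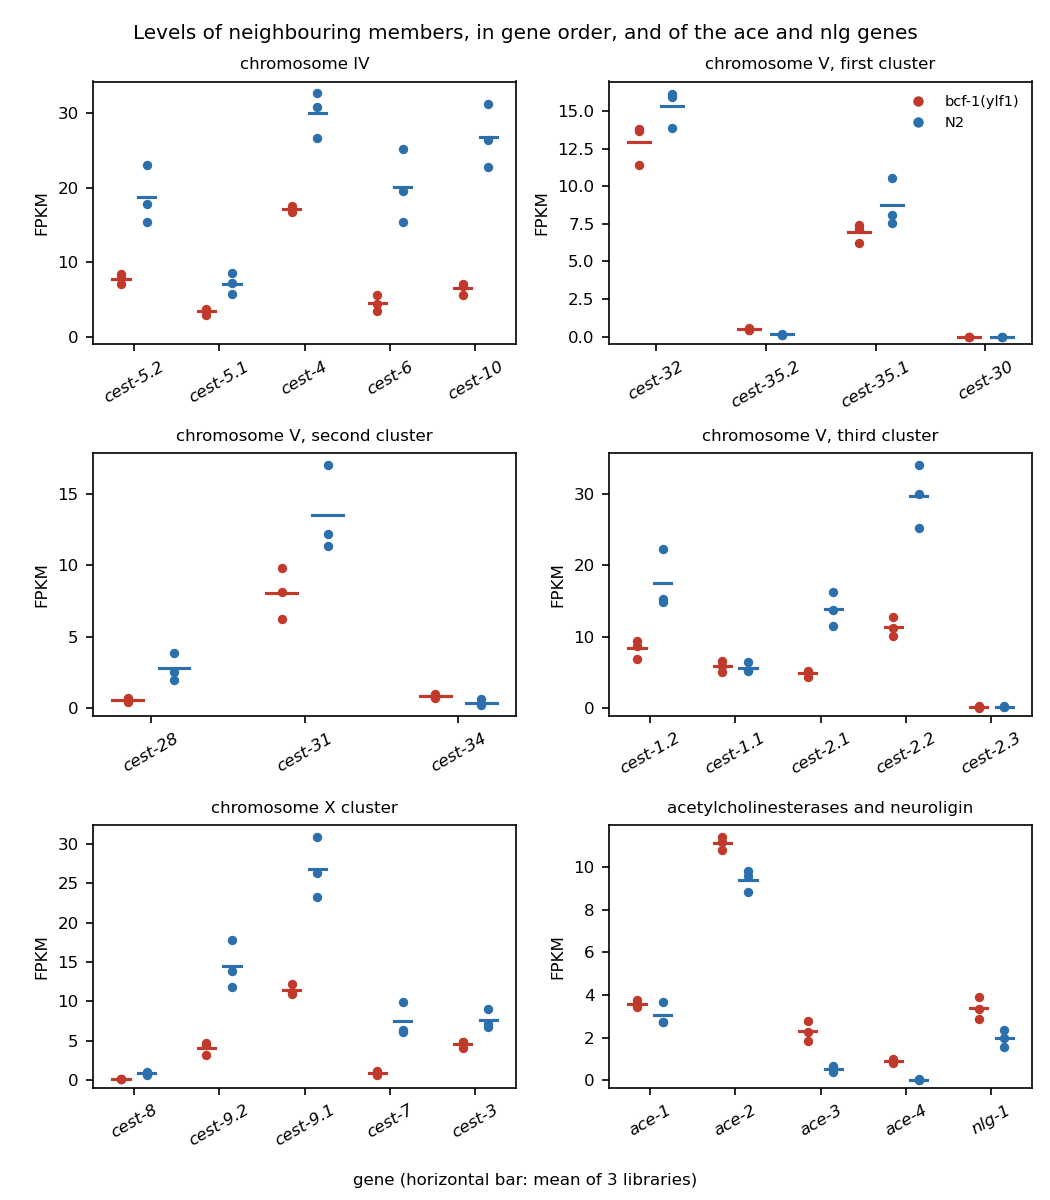
FPKM in each library (points) and genotype means (bars) for neighbouring cest genes in gene order and for the ace and nlg genes, with bcf-1(ylf1) in red left of N2 in blue. The chromosome IV group and the chromosome X cluster are lower in the mutant throughout, the genotypes overlap in cest-1.1 but not in cest-1.2 and cest-2.2, and ace-3, ace-4 and nlg-1 are higher in the mutant.

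The chromosome V run with the most genes holds cest-1.2, cest-1.1, cest-2.1, cest-2.2 and cest-2.3 within 25.3 kb (14157663 to 14182960, minus strand). cest-2.2 (ZC376.2) had 11.2, 10.1 and 12.7 FPKM in the mutant and 29.9, 33.9 and 25.2 FPKM in N2, 2.62-fold lower. cest-2.1 (ZC376.3) had 5.18, 4.40 and 5.11 FPKM in the mutant and 13.7, 16.3 and 11.5 FPKM in N2, 2.83-fold lower. In both genes all mutant libraries lay below all N2 libraries (log2 changes -1.31 and -1.32, SE 0.16 each, limma adjusted p = 0.000198 and 0.00025). Their ratio overlapped between the genotypes, with cest-2.1 at 0.401 to 0.462 of cest-2.2 in the mutant and at 0.455 to 0.481 in N2 (exact permutation p = 0.3, adjusted 0.343).

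The other pair of the run differed in their calls. cest-1.2, known for a role in modular glucosides, averaged 8.37 ± 1.29 FPKM in the mutant and 17.5 ± 4.14 FPKM in N2 (log2 change -0.97, SE 0.19, limma adjusted p = 0.0030). cest-1.1, needed for an ascaroside that carries gluric acid, had 5.95, 5.09 and 6.59 FPKM in the mutant and 5.38, 6.44 and 5.195 FPKM in N2, and the genotypes overlapped (log2 change 0.04, SE 0.15, limma adjusted p = 0.834). The ratio of cest-1.2 to cest-1.1 was 1.36 to 1.47 in the mutant and 2.77 to 3.46 in N2, without overlap (exact permutation p = 0.1, adjusted 0.133). cest-2.3, at 0.0941 to 0.312 FPKM in the mutant and 0.159 to 0.298 FPKM in N2, was too low to be tested.

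The remaining runs on chromosome V were mixed. cest-28, cest-31 and cest-34 lie within 9.29 kb (6669820 to 6679108, plus strand). cest-28 (K11G9.3) had 0.564, 0.411 and 0.724 FPKM in the mutant and 3.85, 2.54 and 1.98 FPKM in N2, 4.93-fold lower (log2 change -1.25, SE 0.19, limma adjusted p = 0.000657). N2 replicate 1 was the highest of its libraries, and no mutant library reached 1 FPKM, so that it was tested through N2 alone and its p is no support. cest-31 averaged 8.08 ± 1.79 FPKM in the mutant and 13.5 ± 3.04 FPKM in N2 (log2 change -0.68, limma adjusted p = 0.0224). That call was lost without mutant replicate 1 or 2 or N2 replicate 2 (limma adjusted p = 0.0614, 0.0708 and 0.0718). The ratio of cest-28 to cest-31 was 0.0655 to 0.0734 in the mutant and 0.149 to 0.338 in N2 (exact permutation p = 0.1, adjusted 0.133). cest-34 stood at 0.758 to 1.02 FPKM in the mutant and 0.243 to 0.631 FPKM in N2 and did not pass the filter. Without a filter its log2 change was 0.43 (limma adjusted p = 0.0264).

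In the run of cest-32, cest-35.2, cest-35.1 and cest-30 (5230475 to 5263099, minus strand) no member was called. cest-32 averaged 12.97 ± 1.37 FPKM in the mutant and 15.4 ± 1.26 FPKM in N2, and cest-35.1 averaged 6.94 ± 0.630 FPKM in the mutant and 8.75 ± 1.61 FPKM in N2 (SD, n = 3 each; limma adjusted p = 0.212 and 0.175). Under each of the scaling alternatives both fell. Their ratio, cest-35.1 to cest-32, was 0.524 to 0.546 in the mutant and 0.501 to 0.663 in N2 (exact permutation p = 0.8, also after adjustment). cest-35.2 lay at 0.421 to 0.582 FPKM in the mutant and 0.121 to 0.178 FPKM in N2, below the filter (without a filter, log2 change 0.37, limma adjusted p = 0.00395). cest-30 is listed at 0 in all 6 libraries.

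The most abundant cest genes not yet described differed by smaller amounts. Among them, cest-25 (Y71H2AM.13; chromosome III) was the top member in both genotypes, with 44.4, 42.1 and 46.6 FPKM in the mutant and 64.1, 75.5 and 66.5 FPKM in N2. The mean was 1.55-fold lower without overlap (log2 change -0.62, SE 0.12, limma adjusted p = 0.00274). cest-17 averaged 17.1 ± 0.433 FPKM in the mutant and 26.0 ± 3.86 FPKM in N2 (log2 change -0.57, limma adjusted p = 0.00946). cest-27 averaged 14.5 ± 1.46 FPKM in the mutant and 21.0 ± 3.52 FPKM in N2 (log2 change -0.50, limma adjusted p = 0.0267). This last call was lost in 5 of 12 alternatives, with adjusted p-values of 0.0685, 0.0816 and 0.0527 without mutant replicate 1, 2 and 3 and of 0.0761 without N2 replicate 2. cest-13 stood at 23.9 ± 0.647 FPKM in the mutant and 27.3 ± 1.32 FPKM in N2 and did not pass (log2 change -0.18, limma adjusted p = 0.229), but fell after median-ratio scaling (adjusted p = 0.0195).

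cest-33 and cest-26 were the cest genes that rose. cest-33 (F13H6.3; chromosome V, 6363408 to 6365671, minus strand) had 40.6, 32.2 and 42.9 FPKM in the mutant and 27.98, 30.8 and 27.4 FPKM in N2, so the lowest mutant library was just above the highest N2 library. The mean ratio was 1.34 (log2 change 0.40, SE 0.14, limma adjusted p = 0.0422). The call was lost in 8 of 12 alternatives. Without mutant replicate 1 or 3 the adjusted p was 0.153 or 0.170, without N2 replicate 1, 2 or 3 it was 0.0596, 0.0529 or 0.117, and after median-ratio scaling the log2 change was 0.14 (adjusted p = 0.432). Within a library, the ratio of cest-33 to ges-1 was 1.26, 1.28 and 1.297 in the mutant and 0.519, 0.435 and 0.498 in N2 (exact permutation p = 0.1, adjusted 0.133). The mutant libraries were close together on this ratio and far from N2. The ratio also holds the 1.99-fold fall of ges-1, so it is no separate support for the rise of cest-33.

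cest-33 also lies near the targeted gene, 35.7 kb from bcf-1, and cest-24 lies 75.0 kb from it on the same side. cest-24 had 10.3, 13.01 and 8.59 FPKM in the mutant and 9.22, 10.4 and 11.2 FPKM in N2, with overlap (log2 change 0.03, limma adjusted p = 0.899), and its sign turned under 4 alternatives. cest-26 (F15A8.6; chromosome X, 4430838 to 4437655) averaged 6.98 ± 0.518 FPKM in the mutant and 3.38 ± 0.196 FPKM in N2, 2.06-fold higher (log2 change 0.86, SE 0.14, limma adjusted p = 0.000925). All mutant libraries of cest-26, at 6.46 to 7.49 FPKM, lay above all N2 libraries, at 3.20 to 3.59 FPKM, and its call held under all 12 alternatives.

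Of the remaining cest genes, cest-12, cest-16 and cest-19 had means below 4 FPKM in both genotypes and did not pass the test. Their log2 changes were -0.44, -0.13 and -0.16 (limma adjusted p = 0.0513, 0.496 and 0.305). cest-12, the longest predicted protein of the family at 850 residues, stood just outside the threshold. It fell after median-ratio scaling, after quantile normalisation, without mutant replicate 2 and without a mean-variance trend (adjusted p = 0.0158, 0.00648, 0.0184 and 0.0453).

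The acetylcholinesterase genes differed among themselves. ace-3 and ace-4 are neighbours on the plus strand of chromosome II, 174 bases apart, and are known to be transcribed together, with ace-4 upstream. ace-3 (Y48B6A.8), whose enzyme is known from pharyngeal muscle cells and a few neurons, had 2.28, 2.80 and 1.84 FPKM in the mutant and 0.396, 0.568 and 0.651 FPKM in N2, 4.28-fold higher. The log2 change was 1.1 (SE 0.15, limma adjusted p = 0.000348), which the scale understates at so low a level. It was tested through the mutant libraries alone, since no N2 library reached 1 FPKM, so the p is no support. ace-4 (Y48B6A.7) had 1.002, 0.913 and 0.807 FPKM in the mutant. In N2 it had 0.0714 FPKM in replicate 1 and was listed at 0 in the other libraries, so no fold is given. It did not pass the filter, and without a filter the log2 change was 0.90 (SE 0.07, limma adjusted p = 0.000212), a size that depends on the pseudocount.

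ace-1 and ace-2 encode the main acetylcholinesterases, made in muscle and in neurons. ace-2 (Y44E3A.2; chromosome I), the most abundant of the 4, had 10.8, 11.2 and 11.4 FPKM in the mutant and 9.59, 9.84 and 8.86 FPKM in N2 (log2 change 0.22, SE 0.13, limma adjusted p = 0.191). ace-1 (W09B12.1; chromosome X) had 3.56, 3.78 and 3.45 FPKM in the mutant and 2.75, 3.65 and 2.75 FPKM in N2, with overlap (log2 change 0.19, SE 0.14, limma adjusted p = 0.305). Neither passed, both lay near the shift of all genes, and both turned to slightly below 0 after median-ratio scaling and quantile normalisation.

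nlg-1 (C40C9.5; chromosome X, 13625373 to 13631172) had 3.35, 3.90 and 2.86 FPKM in the mutant and 1.55, 2.34 and 2.00 FPKM in N2. The lowest mutant library lay above the highest N2 library, and the mean was 1.72-fold higher (log2 change 0.56, SE 0.16, limma adjusted p = 0.0170). The call was lost after median-ratio scaling and quantile normalisation (adjusted p = 0.127 and 0.378) and without mutant replicate 1 or 2 (0.0555 and 0.0520).

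Markers of other tissues were also counted, beside the 34.6% of all tested genes that rose and the 15% that fell. Of 6 pharynx markers 5 rose and 0 fell, with a summed level of 240 to 266 FPKM in the mutant and 53.5 to 64.02 FPKM in N2, none of them at 0. The pharyngeal myosin gene myo-1, for example, averaged 57.6 ± 2.94 FPKM in the mutant and 9.12 ± 1.88 FPKM in N2. ceh-22, among the rises, averaged 1.52 ± 0.219 FPKM in the mutant and 0.217 ± 0.115 FPKM in N2. No N2 library of ceh-22 reached 1 FPKM, so it was tested through the mutant alone and its call is no support. Of 5 body wall muscle markers 3 rose and 0 fell, with a summed level of 2212 to 2393 FPKM in the mutant and 1668 to 1866 FPKM in N2. Of 7 neuron markers 1 rose, unc-31, with a summed level of 208 to 247 FPKM in the mutant and 186 to 196 FPKM in N2, and the count was 2 without N2 replicate 1 and 0 after quantile normalisation. Of 5 germline markers 1 rose, syp-1 (4 without N2 replicate 1, 3 after quantile normalisation and 2 with a replicate block). Of 5 tested hypodermis and cuticle markers 4 rose and col-19 fell, and all 3 yolk genes fell. The part of these tissues in the values of ace-3, ace-4 and nlg-1 was not tested.

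Other genes of acetylcholine signalling, of transmitter release and of adhesion were counted beside the same 34.6% and 15% of all tested genes. Of 15 listed genes of acetylcholine synthesis and transmitter release, 13 had a row under their symbol, and all of these were tested. Apart from cho-1, the 13 are genes of transmitter release in general, so acetylcholine-making enzymes are not covered. They include the neuron markers unc-31, ric-4, snb-1, rab-3, unc-64 and snt-1 counted above, with unc-31 among the rises of both lists. Of the 13, 6 rose and 0 fell (3 rose after quantile normalisation). cho-1, the choline transporter gene, averaged 2.72 ± 0.305 FPKM in the mutant and 1.08 ± 0.0702 FPKM in N2, and unc-13, which primes vesicles for release, averaged 18.7 ± 0.720 FPKM in the mutant and 9.91 ± 1.09 FPKM in N2. Of 23 tested genes of acetylcholine receptors and their clustering, 9 rose and 1 fell. Leaving out mutant replicate 1 gave 4 rises and leaving out mutant replicate 3 gave 5, and either scaling gave 4 rises and 3 falls. The muscarinic receptor genes gar-1, gar-2 and gar-3 were among the rises, gar-1 with 2.71 ± 0.318 FPKM in the mutant and 0.748 ± 0.206 FPKM in N2. No N2 library of gar-1 reached 1 FPKM. It was thus tested through the mutant alone, and its call among the 9 rises is no support. Of 13 synaptic and cell adhesion genes, set beside nlg-1, 10 rose and 0 fell. The list is not limited to synapses, as it holds hmr-1 and dlg-1, genes of cell junctions. hmr-1, the member of smallest p, averaged 53.2 ± 2.75 FPKM in the mutant and 27.5 ± 1.98 FPKM in N2. madd-4, which places receptors at the neuromuscular junction, averaged 6.27 ± 0.842 FPKM in the mutant and 2.37 ± 0.258 FPKM in N2, and syg-2 averaged 6.91 ± 0.477 FPKM in the mutant and 2.68 ± 0.408 FPKM in N2. The median log2 changes of these 3 lists were 0.29, 0.27 and 0.89, beside 0.24 for all tested genes.

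**Figure D4:**
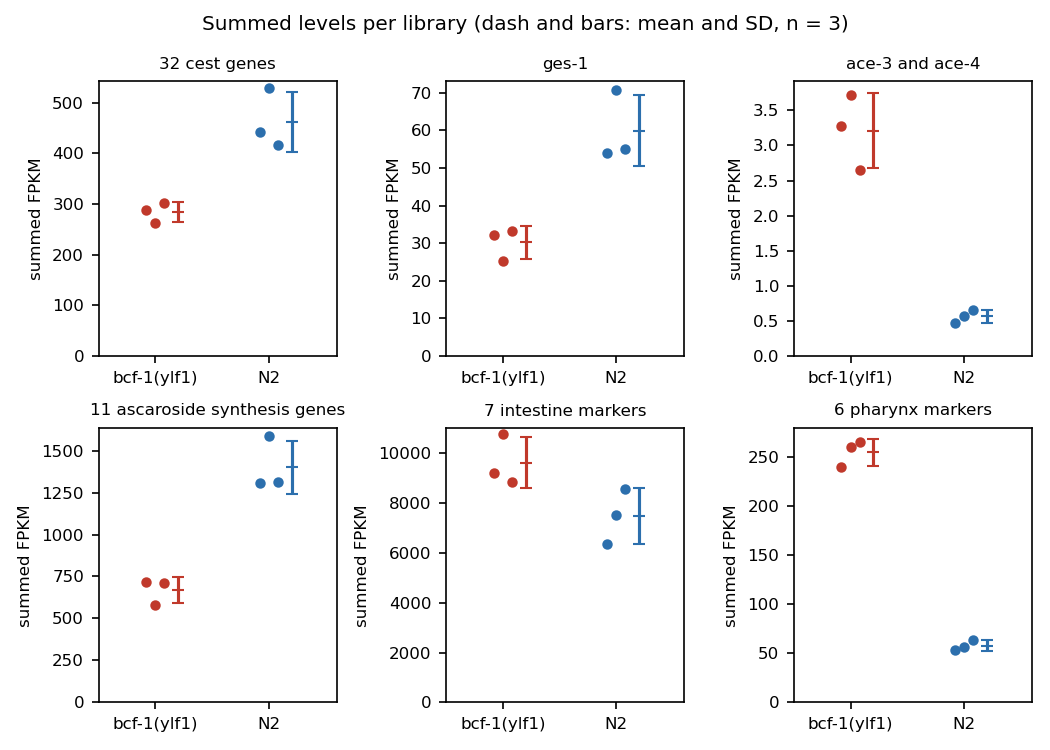
Summed FPKM per library (points) with mean and SD for the cest genes, ges-1, ace-3 with ace-4, ascaroside synthesis genes, intestine markers and pharynx markers, with bcf-1(ylf1) left of N2. The cest sum and the ascaroside sum are lower in all 3 mutant libraries, and the ace-3 and ace-4 sum, the intestine sum and the pharynx sum are higher.

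Intestine markers went both ways, where 15% of all tested genes fell and 34.6% rose. Of the 8 listed, opt-2 found no row under that symbol, and of the other 7, 4 fell, 2 rose and 1 was not called. The falls became 2 without mutant replicate 1 or 3, and the rises became 1 without N2 replicate 1 or 2 and after median-ratio scaling. The summed level was 8839 to 10782 FPKM in the mutant and 6344 to 8560 FPKM in N2, higher in the mutant without overlap, most of it from the protease gene asp-1. None of these markers was at 0. The intermediate filament gene ifb-2 averaged 175 ± 3.39 FPKM in the mutant and 428 ± 21.0 FPKM in N2, while the protease gene cpr-1 averaged 648 ± 12.6 FPKM in the mutant and 177 ± 44.1 FPKM in N2. The part of intestinal content in the fall of the cest genes was not tested.

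Among genes of gut fate, the GATA factor genes elt-2 and elt-7 fell, which are also among the 4 falls of the intestine markers. elt-2 had 20.9, 21.2 and 19.5 FPKM in the mutant and 29.5, 29.9 and 26.8 FPKM in N2 (log2 change -0.47, limma adjusted p = 0.0120). elt-7 averaged 7.17 ± 1.59 FPKM in the mutant and 15.8 ± 2.24 FPKM in N2 (log2 change -1.04, limma adjusted p = 0.00152). Of the 5 tested genes of this list these 2 fell and elt-3, a hypodermal GATA factor gene, rose. Of all tested genes 15% fell and 34.6% rose. Without mutant replicate 1 or 3 there was 1 fall in the list. After median-ratio scaling 4 of the list fell and 0 rose, where 23.5% of all tested genes fell and 22.3% rose.

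The ascaroside pathway that supplies substrates to several CEST enzymes fell almost throughout. Of 11 genes of side-chain shortening in peroxisomes and of acyl activation, 10 fell and 1 rose, where 15% of all tested genes fell and 34.6% rose, with a median log2 change of -1.3. Their summed level was 716, 581 and 708 FPKM in the mutant libraries and 1308, 1584 and 1311 FPKM in the N2 libraries, without overlap. acs-7, an acyl-CoA synthetase gene linked to ascaroside assembly, had 12.1, 11.6 and 11.3 FPKM in the mutant and 52.7, 62.3 and 52.3 FPKM in N2, 4.78-fold lower (log2 change -2.16, SE 0.13, limma adjusted p = 6.72e-06). daf-22, the thiolase gene of the last step of each shortening cycle, had 84.0, 61.7 and 81.6 FPKM in the mutant and 270, 323 and 283 FPKM in N2, 3.85-fold lower (log2 change -1.94, limma adjusted p = 2.03e-05). The acyl-CoA oxidase gene acox-1.5 was the rise, with a log2 change of 2.00. Of 15 tested genes of lysosome-related organelles 1 fell, a lower share than the 15% of all tested genes. It was glo-1, the Rab GTPase gene needed to form them. glo-1 averaged 6.35 ± 0.310 FPKM in the mutant and 11.4 ± 1.46 FPKM in N2 (log2 change -0.75, limma adjusted p = 0.00299). There were 2 falls without N2 replicate 1, without N2 replicate 2 and after quantile normalisation, and 5 after median-ratio scaling.

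The members that fell moved together between libraries of 1 genotype. In 17 of the 18, N2 replicate 2 was the highest N2 library, against 32.1% of all tested genes, with cest-28 the exception. In 17 of the 18, mutant replicate 2 was the lowest mutant library, against 54.1% of all tested genes, with cest-4 the exception. Relative to the mean of the genotype, the median of the 18 was 1.02, 0.876 and 1.09 in mutant replicates 1, 2 and 3 and 0.954, 1.18 and 0.859 in N2 replicates 1, 2 and 3. Over all 32 tested members, N2 replicate 2 was highest in 24 and mutant replicate 2 lowest in 23. The ascaroside genes had this order too: of the 11, N2 replicate 2 was highest in 10 and mutant replicate 2 lowest in 10. Of the 7 intestine markers, N2 replicate 2 was highest in 4 and mutant replicate 2 lowest in 1. Without N2 replicate 2 the family count was 16 lower and 3 higher, and without mutant replicate 2 it was 17 lower and 3 higher. Without N2 replicate 1, the library furthest out on the second principal component, the count was 18 lower and 3 higher. Over all 13576 tested genes, 1822 were lower and 4284 higher without mutant replicate 2, and 2036 and 5732 without N2 replicate 1.

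**Figure D5:**
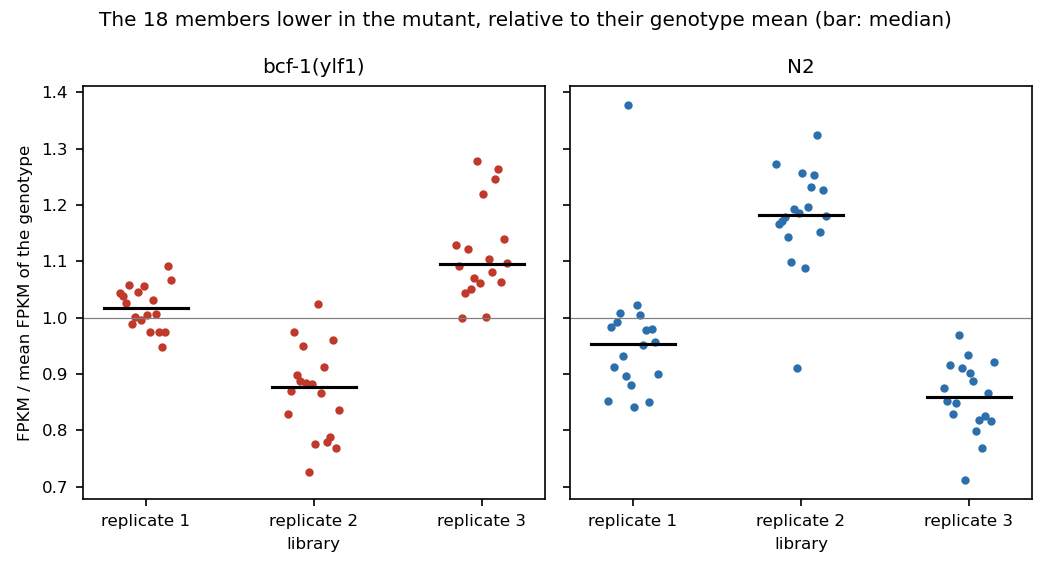
FPKM of each of the 18 members that fell, divided by its mean over the 3 libraries of its genotype, for the bcf-1(ylf1) libraries (left) and the N2 libraries (right), with the median as a bar. Points of mutant replicate 2 lie mostly below 1 and points of N2 replicate 2 mostly above 1, with medians of 0.876 and 1.18.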

How the data were processed

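Total RNA came from TRIzol extracts and was sequenced from VAHTS Universal V6 libraries, per the labels' protocols. The authors deposited 1 expression table with 6 library columns, taken as FPKM, although neither its header nor the labels name a unit. Values are not whole, have unequal sums and, where only 1 library was above 0, fall with exonic length (Spearman -0.57 to -0.27). In those genes 20.6% to 39.5% of values times length lay within 10% of the commonest one, so whole reads were not recovered and no counting interval is given. The submitters' processing notes name fastp and the build WBcel235. No aligner, quantifier, annotation or strand setting is given in the sources used here. RefSeq locus tags of WBcel235 matched 19959 of 20894 rows; positions, exons and protein lengths of members are from the Ensembl WBcel235 annotation.

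limma 3.58.1 in R 4.3.3 was fitted to log2(FPKM + 1) with genotype as the only term and a mean-variance trend, over the 13576 genes that reached 1 FPKM in 3 or more libraries. Tests were two-sided, with Benjamini-Hochberg adjustment over all tested genes at 0.05. The fit was tested on simulated data with independent noise and few changed genes. That setting differs from these data, so it does not bear on the calls made here. Folds are ratios of mean FPKM, and ± is SD over 3 libraries. By a set rule, values per library are given for bcf-1, ges-1, the ace and nlg genes and cest genes changed by at least 1 log2 unit, the 6 most abundant other cest genes are named, and up to 4 genes of smallest p per list. Other members are named to account for all, and further list genes spell out a count or a group. Alternatives were a pseudocount of 0.1, no filter, 2 scalings, a replicate block, no trend and leaving out each library. The members and lists were chosen with earlier results of these data known. Protein and promoter sequences were not used here.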

Additional observations from a re-analysis of the deposited data

How the results depend on the processing

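The family counts of 18 lower and 4 higher were 16 to 18 lower and 2 to 3 higher when each library was left out in turn. Without a filter 19 were lower and 7 higher, the added rises being of the low genes ace-4, cest-34 and cest-35.2. After median-ratio scaling 22 were lower and 2 higher, and after quantile normalisation 23 and 2. The direction and call of bcf-1 held under all 12 alternatives, as did those of 15 falls in the family and of cest-26, leaving out cest-28 and ace-3, which were tested through 1 genotype alone. Over all tested genes, median-ratio scaling gave 3022 higher and 3191 lower, against 4703 and 2035 as deposited. Without a filter 5213 of 19295 genes were higher and 2235 lower. Of all tested genes, 3459 were higher and 1663 lower without mutant replicate 1, and 5732 and 2036 without N2 replicate 1. With a replicate block the counts were 4309 and 1863. Signs turned only in members that were not called. With median-ratio scaling the log2 changes were -0.021 for ace-1, -0.028 for ace-2, -0.19 for cest-1.1 and -0.22 for cest-24, and with quantile normalisation -0.17, -0.073, -0.30 and -0.25. cest-24 was at -0.11 to 0.16 and cest-1.1 at -0.031 to 0.13 when each library was left out, below 0 without mutant replicate 2 (-0.11) or N2 replicate 1 (-0.039) for the first, and without mutant replicate 3 (-0.031) or N2 replicate 3 (-0.0080) for the second. The cause was not tested. No pairing by replicate number was seen. Deviations of same-numbered libraries correlated at 0.0097, -0.074 and -0.28, and no mutant library correlated best with its own number. Deviations from the mean of only 3 libraries depend on each other, so this check cannot decide whether the numbers pair the libraries. With a replicate block 17 members were lower and 3 higher, as cest-27 and cest-33 lost their calls (adjusted p = 0.0571 and 0.0906). Depth is unknown, which limits what can be said of genes under 1 FPKM.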

Other observations

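Over the 32 tested members, Spearman's rho with the log2 change was 0.12 for predicted protein length and -0.10 for the number of exons. For the mean level in N2 it was -0.43, beside -0.42 over all 13576 tested genes, and that level also enters the change. Members share libraries and, in clusters, sequence, so these values are descriptions. The order of the 38 members by level was similar in both genotypes (rho 0.89). Among tested members, cest-6, cest-7 and cest-10 stood 11 ranks lower in the mutant than in N2, and cest-26 stood 11 ranks higher, at rank 16 in the mutant and rank 27 in N2.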
